A study of Homo sapiens with 54 samples.

Results

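The genes of the standard 26S proteasome were followed in the human breast cancer line MDA-MB-231 after treatment with Compound Kushen Injection (CKI), an extract of the roots of Sophora flavescens and Heterosmilax chinensis, and with mixtures that lacked or held named CKI components. Members were chosen by symbol, as every gene named PSMA, PSMB, PSMC or PSMD followed by a number, leaving out the inducible subunits PSMB8, PSMB9 and PSMB10, with a mean of at least 1 CPM (read counts scaled to a fixed library size) over all 54 libraries. Of 36 genes with such a name, 34 were kept, 14 of the core particle (PSMA, PSMB) and 20 of the cap (PSMC, PSMD), out of 27978 genes in the count table. PSMA8 and PSMB11 were left out, with no library above 2 reads. All 34 members passed the filter on low counts that left 16072 genes for testing.

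The libraries form 18 groups of 3 biological replicates. In batch 1, at 24 h and again at 48 h, cells were untreated (UT), given CKI, given CKI without oxymatrine and oxysophocarpine (N_2, N-OmtOspc), given CKI without macrozamin, oxymatrine and oxysophocarpine (N_3, N-MacOmtOspc), given oxymatrine and oxysophocarpine only (OO, OmtOspc) or given macrozamin, oxymatrine and oxysophocarpine only (MOO, MacOmtOspc). In batch 2, at 48 h, cells were untreated, given CKI or given CKI without macrozamin (N-Mac), N-methylcytisine (N-Nme), oxymatrine (N-Omt) or trifolirhizin (N-Tri). The dose was 2 mg/ml of CKI or the matching amount of a mixture. All groups are 1 cell line, and each treated group of a time and batch was compared with the same 3 untreated libraries, so the comparisons within a time and batch share their controls. Total counts ran from 17673537 to 26138924 per library. The line's markers VIM, CD44, KRT18 and EGFR had group means of at least 80.1 CPM, and ESR1 and PGR, known as low in this line, were at or below 0.192 CPM. The other 3 genes fixed as low were detected, ERBB2 between 33.7 and 110 CPM, EPCAM between 7.70 and 26.2 and CDH1 between 0.199 and 6.52, and were called lower with CKI at each time and in each batch. Of the 4 high markers VIM and KRT18 were also lower with CKI in all 3, EGFR was higher in all 3 and CD44 in both at 48 h. Of 6 markers of other cell types, PTPRC, CD3E and ALB were at or below 0.392 CPM, DCN at or below 0.651, PECAM1 between 0.373 and 3.93 and COL1A1 between 12.5 and 61.0. Over the 15 comparisons with untreated cells COL1A1 was called higher in 8, PECAM1 higher in 5 and lower in 2, and DCN lower in 2, and the summed level of the 6 had group means from 13.8 to 62.7 CPM. Their part in the results was not tested.

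The columns of CKI replicate 1, OmtOspc replicate 2 and N-MacOmtOspc replicate 2 at 24 h carry no replicate number, and results at 24 h are also given without these 3 libraries where a count moved. Several libraries stood apart from their group. At 24 h OmtOspc replicate 1 had the core at -0.024 and the cap at 0.035 (median log2 ratio to untreated cells), against -0.37 and -0.19, and -0.39 and -0.20, in replicates 2 and 3. At 48 h N-MacOmtOspc replicate 2 had the core at -0.13 and the cap at 0.15, against -0.043 and -0.036, and 0.17 and 0.086, in the other replicates of its group. At 24 h N-OmtOspc replicate 3 had 120 CPM of PSMB6 against 228 and 240 in the others. Levels are CPM after TMM scaling over all 54 libraries, and fold changes are log2 values from edgeR's quasi-likelihood test, called at an adjusted p-value under 0.05 over all 16072 genes. Scaling to library totals alone moved the median log2 fold change of all genes from -0.0033 to -0.29 for N-OmtOspc against UT at 24 h, from 0.00018 to -0.34 for the same mixture against CKI at 24 h and from 0.0011 to -0.14 for N-MacOmtOspc against CKI at 48 h. Other shifts of the median were under 0.1.

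The proteasome degrades proteins tagged with ubiquitin. Its core particle is a barrel of 2 outer alpha rings, which gate the entry, and 2 inner beta rings, in which PSMB6, PSMB7 and PSMB5 carry the caspase-like, trypsin-like and chymotrypsin-like activities. The cap that docks on the barrel has a base, with 6 ATPases (PSMC1 to PSMC6) that unfold the substrate and the subunits PSMD1, PSMD2 and PSMD4, and a lid, whose subunit PSMD14 removes the ubiquitin chain. PSMD5, PSMD9 and PSMD10 are chaperones that help the base assemble and leave the finished particle. Tumour cells make much protein and lean on the proteasome, and when it is inhibited the transcription factor NFE2L1 (also called NRF1) is known to raise the subunit genes together.

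With CKI and its mixtures the members did not rise together. Over the 15 comparisons with untreated cells, core genes were called higher in 37 and lower in 55 of 210 tests (14 genes in each of 15 comparisons) and cap genes higher in 68 and lower in 86 of 300. Of the 34 members, 5 were called higher in at least 1 group and lower in none (PSMB7, PSMD2, PSMD7, PSMD11 and PSMD12), 12 lower and never higher (PSMA3, PSMA7, PSMB2, PSMB6, PSMC1, PSMC3, PSMC6, PSMD1, PSMD5, PSMD6, PSMD8 and PSMD9) and 17 in both directions. No member went uncalled in all groups. The same tally was not made over all genes, so these counts do not set the members apart from other genes. The mean share of all genes called in these comparisons was 27.2% higher and 26.5% lower. In bulk RNA, a change in every cell and a change in the share of cells in a given state cannot be told apart.

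**Figure D1:**
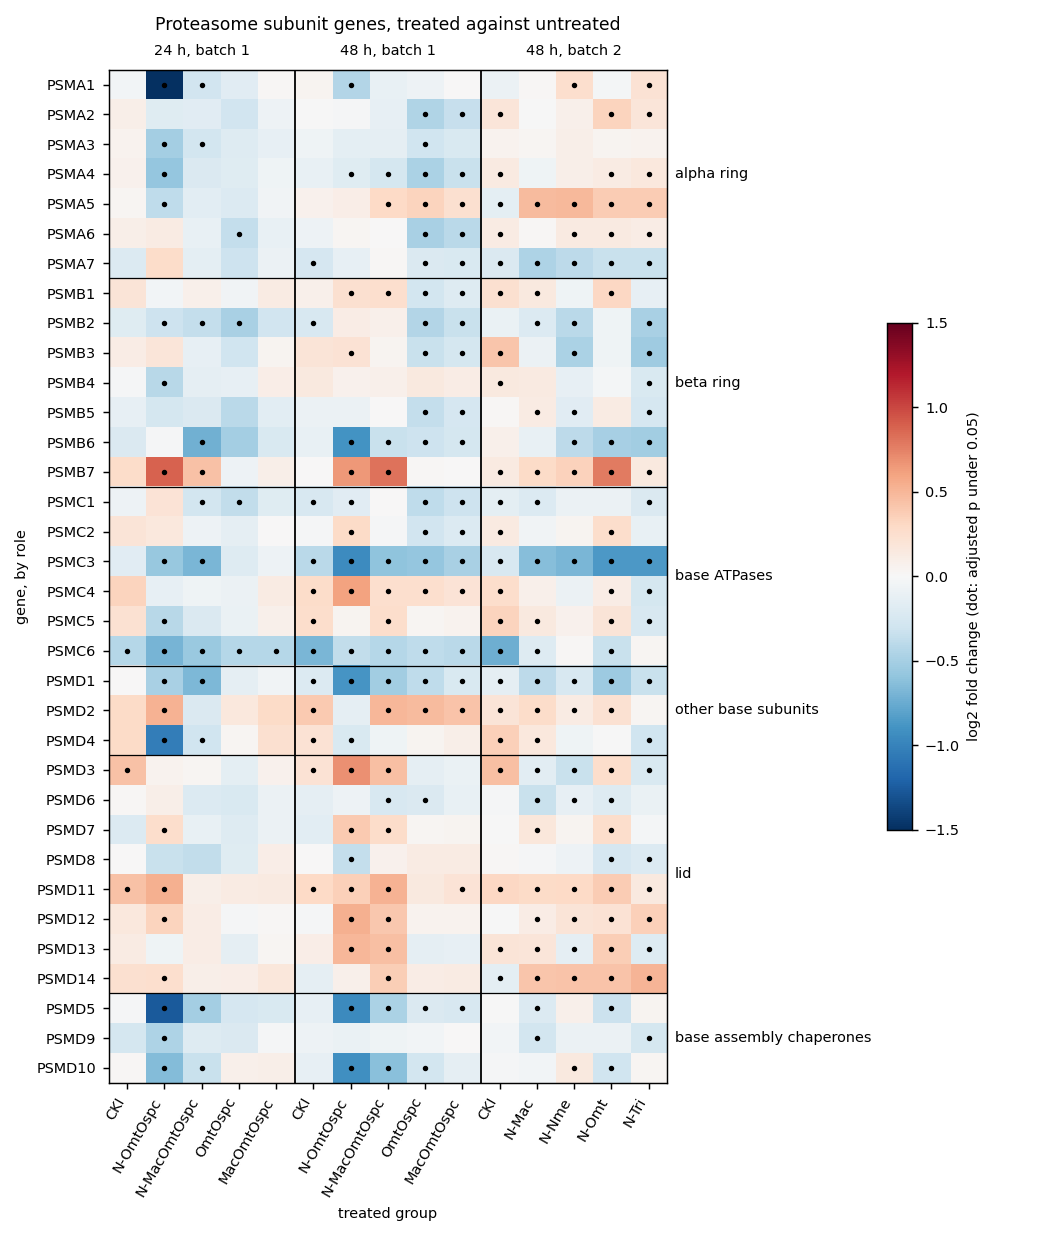
Each cell is the log2 fold change of 1 of 34 proteasome genes (rows, by role) in 1 of 15 treated groups against untreated cells of the same time and batch (columns), with a dot at an adjusted p under 0.05. The rows of PSMC3, PSMC6 and PSMD1 are blue in most columns, those of PSMD11 and PSMB7 red, and N-OmtOspc at 24 h has the darkest cell, PSMA1 at -1.49.

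The cap did not move as 1 unit. Lid genes were called higher in 40 and lower in 14 of 120 tests, with a median log2 fold change of 0.069. Base ATPase genes were called higher in 15 and lower in 39 of 90, with a median of -0.11. Neither role moved as a whole. PSMC1, PSMC3 and PSMC6 were lower in 9, 12 and 13 groups and never higher, and the higher ATPase calls were all of PSMC2, PSMC4 and PSMC5. In the lid, PSMD6 and PSMD8 were lower in 5 and 3 groups and never higher. The chaperones of the base were called higher in 1 and lower in 17 of 45. For the other base subunits the counts were 12 higher and 16 lower of 45, for the alpha ring 19 and 26 of 105, and for the beta ring 18 and 29 of 105. As a share of tests, the lid had 33.3% higher and 11.7% lower, and the base ATPases 16.7% higher and 43.3% lower. Without 4 libraries (the 3 with no number at 24 h and N-MacOmtOspc replicate 2 at 48 h), the lid counts were 40 and 15 and the ATPase counts 15 and 38. With library totals alone they were 43 and 12 for the lid and 19 and 35 for the ATPases, and the alpha ring turned to 24 higher and 22 lower and the beta ring to 26 higher and 25 lower. With DESeq2 the lid had 41 higher and 21 lower and the ATPases 18 and 40. The tests of 1 gene in several groups share controls, so these counts describe the groups and were given no test.

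**Figure D2:**
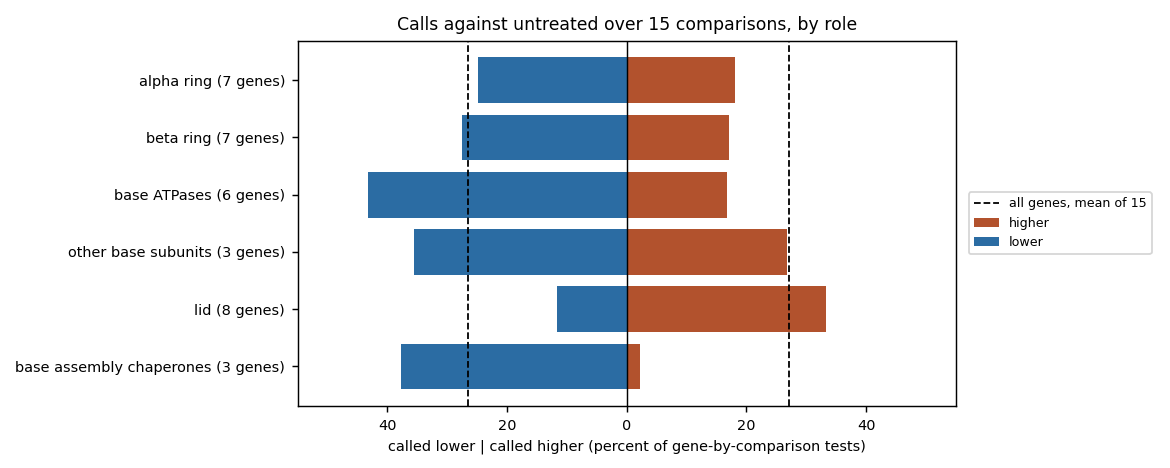
Bars give, for each role, the percent of tests (genes times 15 comparisons with untreated cells) called higher (to the right) or lower (to the left), and the dashed lines the mean share of all 16072 genes, 27.2% higher and 26.5% lower. The lid (33.3% higher) lies mainly to the right, the base ATPases (43.3% lower) and the base chaperones (37.8% lower) to the left.

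At 24 h few members passed the test with CKI, OmtOspc or MacOmtOspc. With CKI, 2 members were higher (PSMD3 and PSMD11) and 1 lower (PSMC6), when 14.3% of all genes were higher and 13.9% lower. With library totals alone the CKI counts were 7 higher and 1 lower, and without the 3 libraries with no number 3 and 1. OmtOspc had no member higher and 4 lower, with 8.40% and 7.12% of all genes. Its count depended on single libraries, from 1 called member without replicate 3 to 11 without replicate 1 (2 without replicate 2 or without either of UT replicates 1 and 2). MacOmtOspc had PSMC6 alone lower and none higher, with 5.25% of all genes higher and 4.42% lower, and no member was called without UT replicate 1, UT replicate 2 or MacOmtOspc replicate 2. The mixtures lacking oxymatrine and oxysophocarpine moved more members, and also more of all genes. N-OmtOspc had 6 members higher and 14 lower, with 30.1% and 30.2% of all genes, a split of 1 higher and 20 lower with library totals alone. N-MacOmtOspc had 1 higher (PSMB7) and 11 lower, with 22.5% and 20.7% of all genes. Its total of 12 fell to 7 without UT replicate 1, UT replicate 2 or N-MacOmtOspc replicate 3, and was 9 without its replicate 2. The libraries at 24 h varied most between replicates, with a biological coefficient of variation of 0.176 against 0.0762 at 48 h in batch 1 and 0.0483 in batch 2.

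At 48 h most core genes and most base ATPase genes of the cap fell with oxymatrine and oxysophocarpine given alone, with or without macrozamin. OmtOspc had 10 of 14 core genes lower and 1 higher (PSMA5). In the cap 8 of 20 were lower and 2 higher, of which the base ATPases had 4 of 6 lower and 1 higher. In all that was 3 members higher and 18 lower, with 29.1% and 27.2% of all genes. MacOmtOspc had 9 core genes lower and 1 higher (PSMA5), and 4 members higher and 15 lower in all, with 25.6% and 24.0% of all genes. Its base ATPases also had 4 of 6 lower and 1 higher. With library totals alone the splits were 7 higher and 13 lower for OmtOspc and 8 and 8 for MacOmtOspc, of which the core kept 7 and 4 lower. The MacOmtOspc total of 19 fell to 12 without UT replicate 2.

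In the OmtOspc libraries at 48 h the median core gene lay at -0.25, -0.33 and -0.33 (log2 ratio to the untreated mean) and the median cap gene at -0.023, -0.055 and -0.15. In the MacOmtOspc libraries the core lay at -0.21, -0.25 and -0.26 and the cap at 0.0044, -0.045 and -0.039. Every one of these 6 core medians was below those of the untreated libraries, which ran from -0.081 to 0.046. The core median minus the cap median of the fold changes was -0.22 for OmtOspc and -0.19 for MacOmtOspc, and -0.33 and -0.28 with the 3 base chaperones left out of the cap. Taken as means over the members these differences were smaller, -0.14 and -0.12. Leaving out the chaperones moved other groups too, N-MacOmtOspc at 48 h to -0.24, N-OmtOspc at 24 h to -0.27 and N-Tri upward to 0.16. For OmtOspc and MacOmtOspc the base ATPase medians were -0.33 and -0.26, against -0.30 and -0.23 for the alpha ring and -0.31 and -0.25 for the beta ring. The lid medians were 0.037 and 0.046, and those of the other base subunits 0.046 and 0.085.

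The other batch 1 groups at 48 h were split. With CKI, 6 members were higher, all of the cap, and 6 lower, with 26.2% and 26.4% of all genes (9 and 5 members with library totals alone). N-OmtOspc had 10 higher and 11 lower, with 38.0% and 37.3% of all genes. N-MacOmtOspc had 12 higher and 8 lower, with 35.3% and 34.2% of all genes. Under both mixtures the lid rose, with 5 of 8 genes higher in the first and 6 of 8 in the second and 1 lower in each (PSMD8 and PSMD6). Without N-MacOmtOspc replicate 2 that mixture had 13 members higher and 8 lower. The lid medians were 0.37 and 0.38, against 0.027 and 0.037 for all genes.

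In batch 2 CKI had 7 of 14 core genes higher and 2 lower (PSMA5 and PSMA7), and 15 members higher and 7 lower in all, with 30.6% and 32.6% of all genes (17 and 3 members with library totals alone). The count of core genes higher with CKI was 3 without CKI replicate 2 or 3, 4 without UT replicate 1, and 5 with DESeq2. N-Mac had 12 higher and 10 lower, with 34.6% and 34.4% of all genes, and N-Nme 9 and 10, with 35.1% and 32.9%. With library totals alone these splits were 14 and 6, and 14 and 7. N-Omt had 16 higher and 9 lower, with 37.8% and 37.9% of all genes. N-Tri went the other way, with 9 higher and 16 lower, and 35.0% and 34.1% of all genes. Its cap accounted for 10 of the lower genes and 3 of the higher ones, and its alpha ring for 5 of the higher ones. The median cap gene lay at -0.12, -0.14 and -0.17 in the N-Tri libraries, below the untreated range of -0.0064 to 0.014.

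**Figure D3:**
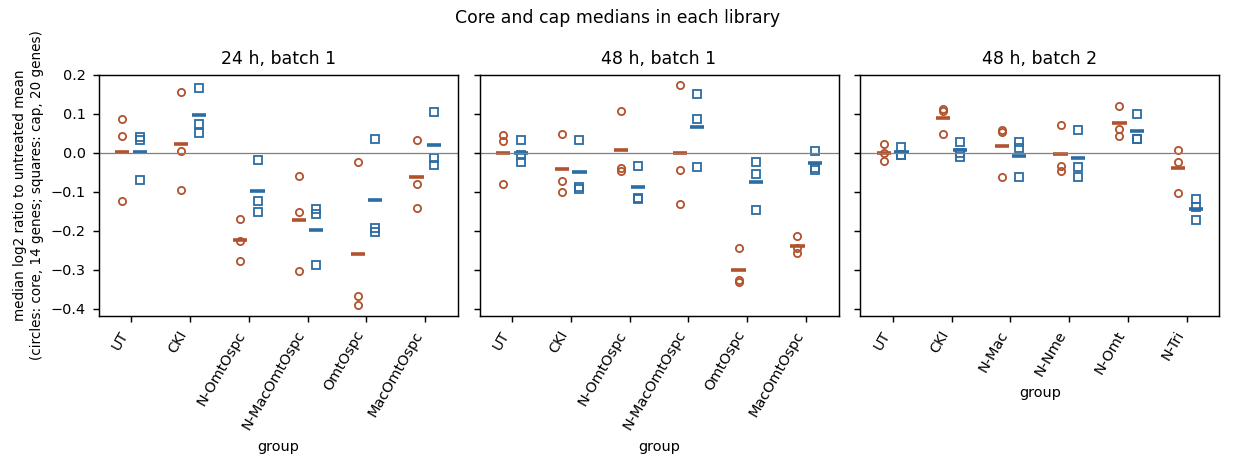
Each point is 1 library: the median over 14 core genes (circles) or 20 cap genes (squares) of the log2 ratio to the mean of untreated cells of the same time and batch, with a bar at the group mean. At 48 h in batch 1 the core points of OmtOspc and MacOmtOspc lie between -0.33 and -0.21, apart from their cap points, and in batch 2 the cap points of N-Tri lie between -0.17 and -0.12.

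Of the catalytic genes, PSMB7 rose, PSMB6 fell and PSMB5 was called least often. PSMB7 was called higher in 9 of 15 groups. At 24 h its levels were 131, 134 and 124 CPM in untreated replicates 1 to 3, 250.2, 275 and 197 with N-OmtOspc and 190.3, 154 and 182 with N-MacOmtOspc. All libraries of both mixtures lay above the untreated ones. The log2 fold changes were 0.89 ± 0.126 (SE, adjusted p = 1.18e-05) and 0.43 ± 0.125 (SE, adjusted p = 0.0100). At 48 h the same mixtures gave 205, 179 and 183 and 186, 242 and 208 CPM against 118, 125 and 118 in untreated cells, a log2 fold change of 0.65 ± 0.0779 (SE, adjusted p = 8.14e-08) and 0.82 ± 0.0780 (SE, adjusted p = 2.84e-09). OmtOspc and MacOmtOspc left PSMB7 at 122 ± 2.26 and 121 ± 1.28 CPM (SD, n = 3), with log2 fold changes of 0.022 and 0.0089 that missed the threshold. In batch 2 all 5 treated groups were called higher, N-Omt most, with 189.8, 201 and 198 CPM against 114, 109 and 120.27 and a log2 fold change of 0.78 ± 0.0604 (SE, adjusted p = 7.73e-14). The smaller rises there with CKI (0.14) and N-Tri (0.14) were not called with DESeq2 (0.14 and 0.13). They were also lost when single libraries were left out, among them UT replicate 2 (0.10 and 0.11), CKI replicate 2 (0.10) and N-Tri replicate 1 (0.10).

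PSMB6 was called lower in 8 groups and higher in none. At 48 h in batch 1 it stood at 132, 148 and 143 CPM in untreated cells and at 77.1, 74.8 and 75.5 with N-OmtOspc, which did not overlap, a log2 fold change of -0.89 ± 0.0855 (SE, adjusted p = 2.19e-09). N-MacOmtOspc gave 97.8, 107 and 129 CPM and -0.34 ± 0.0845 (SE, adjusted p = 0.00112). In batch 2 untreated cells had 127, 127 and 123 CPM and N-Tri 84.6, 89.6 and 87.4, a log2 fold change of -0.53 ± 0.0711 (SE, adjusted p = 4.69e-08). N-Omt and N-Nme were also lower, at -0.50 and -0.39 log2, with CKI at 0.079 and not called. At 24 h the untreated libraries themselves ran from 170 to 223 CPM. Only N-MacOmtOspc was called there (-0.72 ± 0.220 SE, adjusted p = 0.0144), and not without UT replicate 1 (-0.62). MacOmtOspc at 48 h (-0.27) was not called without UT replicate 2 (-0.23) or with library totals alone (-0.19).

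PSMB5, the target of the drug bortezomib, was called in 5 groups. It was lower at 48 h with OmtOspc, 126, 123 and 119.97 CPM against 146, 164 and 161 in untreated cells (-0.35 ± 0.0724 SE, adjusted p = 0.000245), and with MacOmtOspc, 137, 129 and 131 CPM (-0.25 ± 0.0723 SE, adjusted p = 0.00606), the latter not called with library totals alone (-0.17). Neither group overlapped the untreated libraries. In batch 2 N-Tri had 121, 121 and 116 CPM against 143, 144 and 141 (-0.26 ± 0.0552 SE, adjusted p = 0.000107). N-Nme was lower at -0.17 and N-Mac higher at 0.13, calls that were lost without N-Nme replicate 2 (-0.13) or 3 (-0.11) or with library totals alone (-0.11), and without UT replicate 1 (0.13) or 3 (0.12) or N-Mac replicate 1 (0.11) or 2 (0.14). The N-Nme call was also lost with the 2 groups compared alone (-0.17), and the N-Mac call with RLE size factors (0.11) and with DESeq2 (0.13).

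The inducible counterparts of these subunits fell in every treated group. PSMB9, PSMB10 and PSMB8 replace PSMB6, PSMB7 and PSMB5 in the immunoproteasome, the form that cells build after interferon. PSMB10 went from 34.3, 41.9 and 39.8 CPM in untreated cells at 48 h in batch 1 to 13.2, 11.8 and 13.8 with CKI (-1.58 ± 0.0955 SE, adjusted p = 6.03e-12) and to 7.93, 7.82 and 7.29 with OmtOspc (-2.33 ± 0.102 SE, adjusted p = 1.07e-14). Its log2 fold changes over the 15 groups ran from -2.33 to -1.22. For PSMB8 the range was -1.26 to -0.54 and for PSMB9 -1.86 to -0.31, and all 45 tests were called. Over the 15 groups these 3 genes with PSME1 and PSME2 were lower in 67 and higher in 0 of 75 tests, against 26.5% and 27.2% of all genes on average. PSME1 and PSME2, the 2 genes of the 11S activator that docks on the immunoproteasome, were lower in 10 and 12 of 15 groups.

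**Figure D4:**
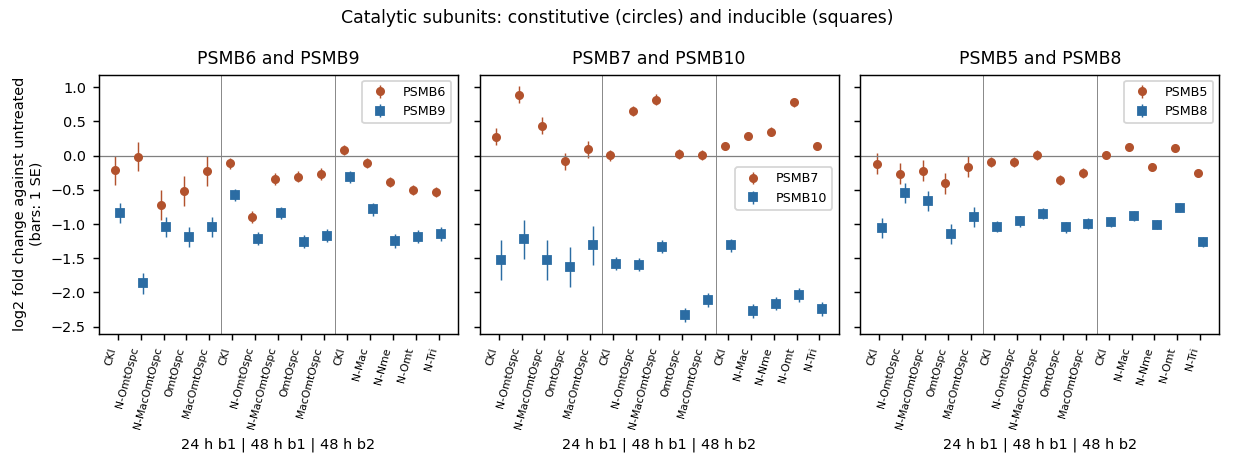
Log2 fold changes against untreated cells (vertical axis, bars 1 SE) of each constitutive catalytic subunit (circles) and its inducible counterpart (squares) in the 15 treated groups, with grey lines between 24 h in batch 1, 48 h in batch 1 and 48 h in batch 2. PSMB9, PSMB10 and PSMB8 lie below 0 throughout, PSMB7 reaches 0.89 and PSMB5 stays between -0.40 and 0.13.

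In the alpha ring PSMA5 was called in 9 of 15 groups (7 higher, 2 lower), PSMA7 in 8 (all lower), PSMA4 in 8 (3 higher, 5 lower), PSMA6 in 7 (4 higher, 3 lower), PSMA1 and PSMA2 in 5 each and PSMA3 in 3. Values are given for PSMA1 and PSMA5, picked after they were seen. PSMA1 had 197, 191 and 176 CPM in untreated cells at 24 h and 64.2, 64.4 and 71.9 with N-OmtOspc (-1.49 ± 0.0946 SE, adjusted p = 2.6e-09), the lowest fold change of any member. At 48 h the same mixture gave 115, 119 and 108 against 151, 159 and 153 CPM (-0.43 ± 0.0779 SE, adjusted p = 2.75e-05). These groups did not overlap at either time. PSMA5 was higher with OmtOspc and MacOmtOspc at 48 h (0.33 and 0.24), when PSMA2, PSMA4, PSMA6 and PSMA7 were lower with both, with log2 fold changes between -0.49 and -0.22. In batch 2 PSMA5 stood at 157, 154 and 160.3 CPM in untreated cells, at 138, 145 and 141 with CKI (-0.15 ± 0.0483 SE, adjusted p = 0.00665) and at 219, 212 and 223 with N-Mac (0.48 ± 0.0477 SE, adjusted p = 6.8e-11). The other single removals also raised it, by 0.38 to 0.48 log2.

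Among the base ATPases PSMC3 and PSMC6 were lower in most groups, PSMC3 in 12 and PSMC6 in 13 of 15. PSMC6 was the member that CKI lowered most at each time and in each batch. It had 105, 104 and 97.5 CPM in untreated cells at 24 h and 80.8, 72.1 and 75.3 with CKI (-0.43 ± 0.102 SE, adjusted p = 0.00498). At 48 h in batch 1 the values were 90.6, 95.5 and 89.6 and 61.0, 57.4 and 53.8 (-0.68 ± 0.0919 SE, adjusted p = 1.81e-06), and in batch 2 95.6, 99.5 and 101 and 59.2, 58.9 and 59.9 (-0.74 ± 0.0569 SE, adjusted p = 1.78e-13). The CKI libraries lay below the untreated ones in all 3 settings. The other 4 treated groups of batch 1 were lower too, between -0.70 and -0.36 log2 over both times. In batch 2 the fall was smaller with N-Omt, 74.6, 79.6 and 80.3 CPM, and N-Mac, 90.2, 79.5 and 89.4 CPM (not called with library totals alone, -0.11), and no change was called with N-Nme, 95.0, 96.6 and 109.5 CPM (0.023 ± 0.0550 SE, adjusted p = 0.733), or N-Tri, 102, 102 and 97.7 CPM (0.025 ± 0.0552 SE, adjusted p = 0.701). At 24 h the call with OmtOspc was lost without its replicate 3 (-0.36), and that with MacOmtOspc without UT replicate 1 (-0.41) or 2 (-0.41) or its own replicate 2 (-0.41).

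PSMC3 fell with every mixture at 48 h. In batch 2 it stood at 352, 347 and 349 CPM in untreated cells, 295, 303 and 294 with CKI (-0.23 ± 0.0537 SE, adjusted p = 0.000278) and 192, 192 and 193 with N-Tri (-0.86 ± 0.0545 SE, adjusted p = 4.43e-16). In batch 1 it stood at 296, 333 and 333 CPM in untreated cells and 178, 155 and 166 with N-OmtOspc (-0.95 ± 0.0992 SE, adjusted p = 9.88e-09). No treated library of either batch at 48 h reached the untreated ones. At 24 h N-OmtOspc (-0.57 ± 0.156 SE, adjusted p = 0.00466) and N-MacOmtOspc (-0.68 ± 0.156 SE, adjusted p = 0.00216) were called, and the other 3 groups lay between -0.19 and -0.079 and were not. Of the remaining ATPases, PSMC4 was called higher in 7 groups and lower with N-Tri, PSMC5 higher in 5 and lower in 2, PSMC1 lower in 9 and PSMC2 higher in 3 and lower in 2.

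Of the scaffold subunits of the base, PSMD1 was lower and PSMD2 higher in most groups. PSMD1 was called lower in 12 groups. It had 131, 125 and 122 CPM in untreated cells at 48 h in batch 1 and 72.3, 66.6 and 65.7 with N-OmtOspc (-0.89 ± 0.0700 SE, adjusted p = 8e-11), and 85.7, 96.8 and 81.9 with N-MacOmtOspc (-0.52 ± 0.0694 SE, adjusted p = 6.29e-07). In batch 2 N-Omt gave 87.2, 95.6 and 91.1 against 133, 136 and 130.1 CPM (-0.54 ± 0.0481 SE, adjusted p = 2.53e-12). None of these groups overlapped the untreated libraries. CKI had values nearer 0, -0.21 and -0.14 log2 in the batches at 48 h, and both calls were lost with library totals alone (-0.12 and -0.045). The first was also lost without UT replicate 1 (-0.18), CKI replicate 2 (-0.19) or CKI replicate 3 (-0.19).

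PSMD2 was called higher in 9 groups and lower in none. With CKI at 48 h it rose from 586, 566 and 569.8 to 771, 763 and 721 CPM in batch 1 (0.39 ± 0.0827 SE, adjusted p = 0.000410) and from 638, 629 and 641 to 717, 726 and 731 CPM in batch 2 (0.19 ± 0.0513 SE, adjusted p = 0.00174). With OmtOspc it stood at 814, 804 and 784 CPM (0.48 ± 0.0827 SE, adjusted p = 3.26e-05). N-OmtOspc lay at 1161, 1165 and 723 CPM at 24 h, with replicate 3 near the untreated 719, 709 and 695 (0.52 ± 0.144 SE, adjusted p = 0.00470), and below them at 48 h (547, 510.3 and 508 CPM against 586, 566 and 569.8), where the log2 fold change of -0.14 was not called. The call at 24 h was lost with library totals alone (0.23), and that with N-Nme in batch 2 (0.12) without UT replicate 1 (0.13) or 2 (0.11) or N-Nme replicate 1 (0.053) or 2 (0.12). The N-Nme call was also lost with DESeq2 (0.097) and with the 2 groups compared alone (0.12). PSMD4, a receptor that binds ubiquitin chains, was called higher with CKI at 48 h in batch 1 (0.22 ± 0.0656 SE, adjusted p = 0.00694) and in batch 2 (0.36 ± 0.0584 SE, adjusted p = 2.15e-06). It was lowest with N-OmtOspc at 24 h, 84.6, 79.9 and 88.5 CPM against 189.8, 179 and 153 (-1.04 ± 0.121 SE, adjusted p = 1.36e-06). In batch 2 N-Mac was higher at 0.16, a call lost without UT replicate 1 (0.14) or N-Mac replicate 1 (0.14), and N-Tri lower at -0.30. The call with N-MacOmtOspc at 24 h (-0.30) was lost without any 1 of 5 libraries, all but UT replicate 3 (-0.32 to -0.23), with the replicate block (-0.30), with no filter beyond 1 count (-0.30) and without the 3 libraries with no number (-0.29).

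**Figure D5:**
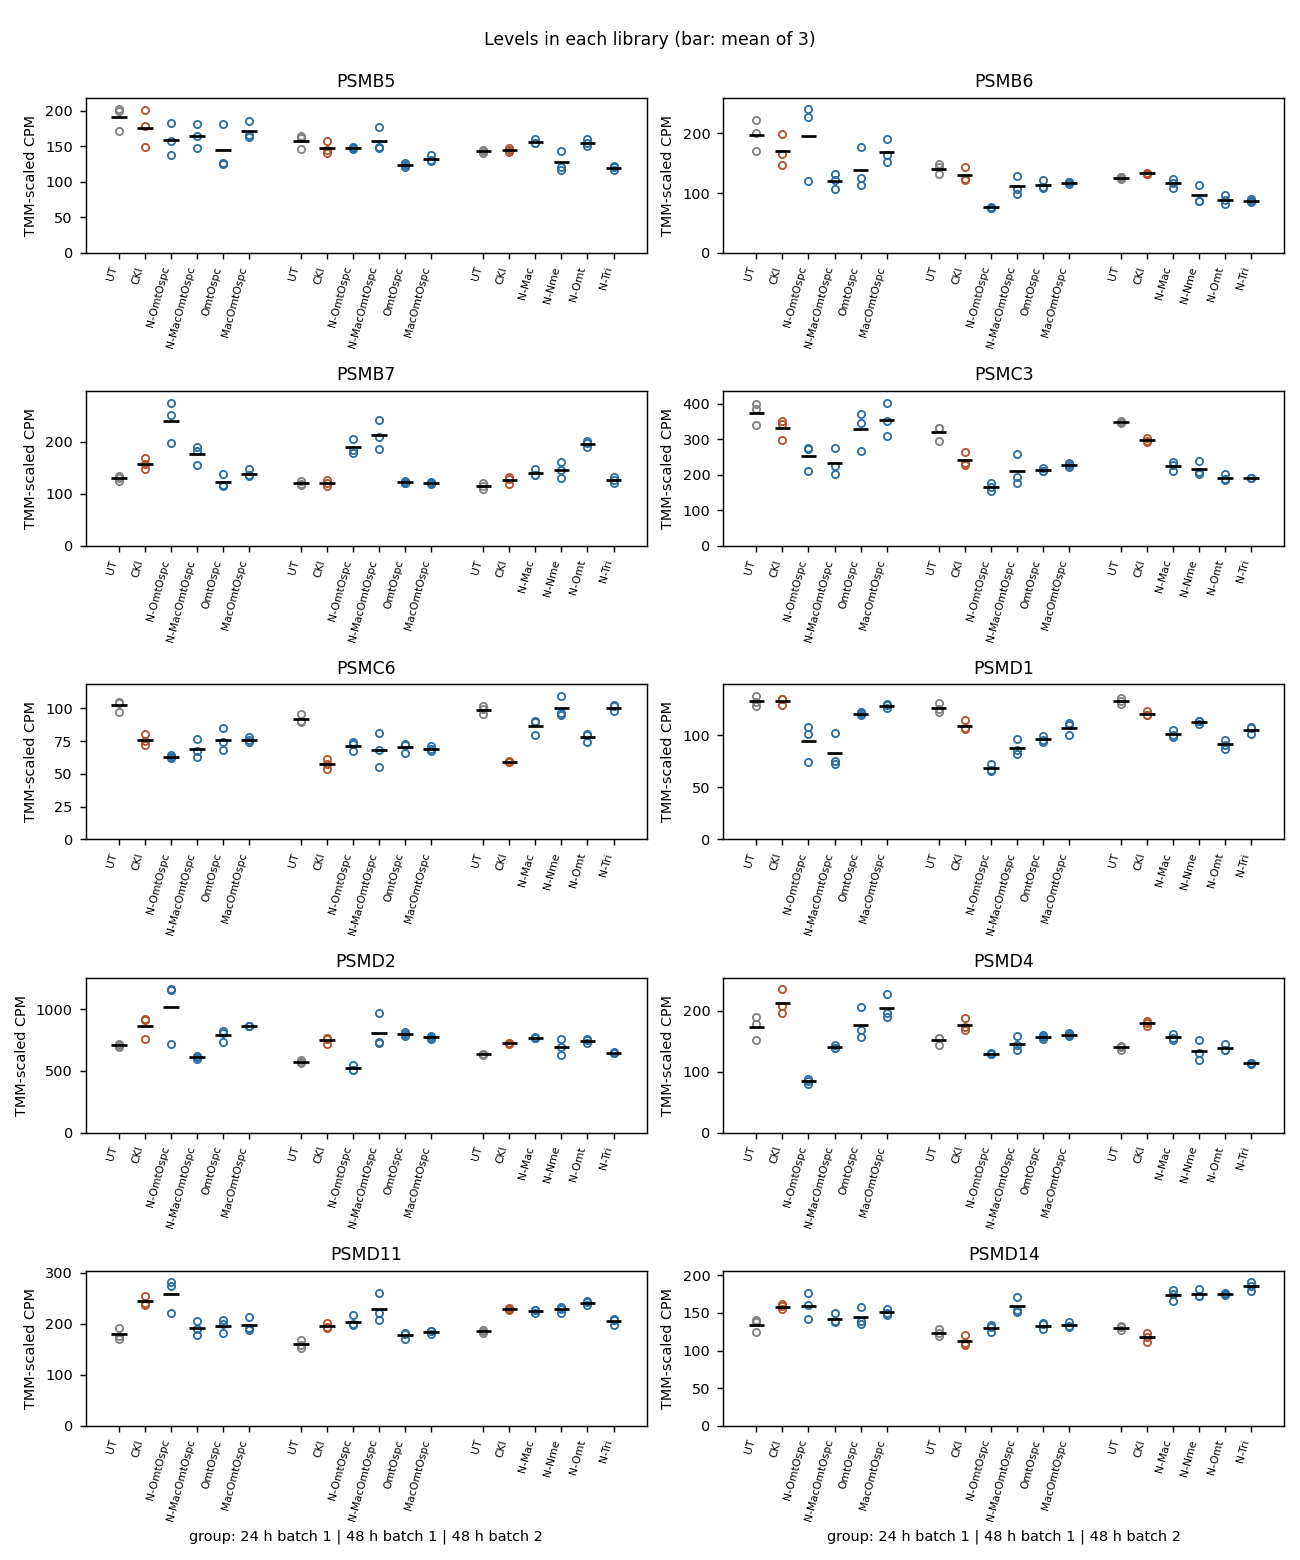
Points are single libraries and bars group means of TMM-scaled CPM for 10 members, by group at 24 h in batch 1, 48 h in batch 1 and 48 h in batch 2 (untreated grey, CKI red, mixtures blue). PSMC6 drops from 95.6 to 101 CPM in untreated cells of batch 2 to 58.9 to 59.9 with CKI, and PSMD14 lies at 166 to 190.5 CPM in the 4 single removals of batch 2, against 127 to 133 in untreated cells.

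In the lid, PSMD11 was called higher in 11 groups and lower in none. With CKI it went from 171, 177 and 192 to 254, 240.1 and 237 CPM at 24 h (0.44 ± 0.107 SE, adjusted p = 0.00563), from 168, 153 and 159 to 193, 194 and 201 at 48 h in batch 1 (0.30 ± 0.0736 SE, adjusted p = 0.00179) and from 185, 182 and 188 to 227, 232 and 228 in batch 2 (0.31 ± 0.0448 SE, adjusted p = 2.75e-07). The groups did not overlap in any of the 3. N-OmtOspc at 24 h gave 0.53 ± 0.107 (SE, adjusted p = 0.000417), which was lost with library totals alone (0.24), and N-MacOmtOspc at 48 h 0.52 ± 0.0738 (SE, adjusted p = 1.27e-06). The call with MacOmtOspc at 48 h (0.21) was lost with RLE size factors (0.18), and without UT replicate 2 (0.17) or 3 (0.20) or its own replicate 1 (0.19) or 3 (0.20).

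PSMD14, the deubiquitinase, was higher with the single removals of batch 2 and lower with CKI. It stood at 131, 127 and 133 CPM in untreated cells and 112, 124 and 118 with CKI (-0.15 ± 0.0488 SE, adjusted p = 0.00929), a call lost without CKI replicate 1 (-0.11) and with library totals alone (-0.051). With N-Mac it was 176, 166 and 180.3 CPM (0.42 ± 0.0482 SE, adjusted p = 1.84e-09), with N-Nme 172, 181 and 172, with N-Omt 173, 176 and 176 and with N-Tri 185, 190.5 and 179.7 (0.51 ± 0.0482 SE, adjusted p = 2.03e-11). Every library of the 4 removals lay above every untreated and CKI library. In batch 1 N-MacOmtOspc was higher at 48 h (0.37 ± 0.0651 SE, adjusted p = 3.12e-05). The call for N-OmtOspc at 24 h (0.25) was lost without UT replicate 2 (0.27) or 3 (0.20) or its own replicate 1 (0.24) or 2 (0.17), and its sign turned with library totals alone (-0.039). That call was also lost with no filter beyond 1 count (0.25) and with the 2 groups compared alone (0.25). PSMD12 was called higher in 7 groups and lower in none, and PSMD3 and PSMD13 in both directions, 6 higher and 3 lower for PSMD3 and 5 and 2 for PSMD13.

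Of the chaperones of the base, PSMD5 and PSMD10 fell with the mixtures lacking oxymatrine and oxysophocarpine, though neither gene with these mixtures only. Both were picked after their values were seen. PSMD5 had 57.5, 60.9 and 63.1 CPM in untreated cells at 24 h, 24.3, 23.7 and 27.7 with N-OmtOspc (-1.26 ± 0.107 SE, adjusted p = 4.35e-08) and 38.1, 46.9 and 42.7 with N-MacOmtOspc (-0.51 ± 0.105 SE, adjusted p = 0.000998). At 48 h it had 60.2 ± 0.509 CPM (SD, n = 3) in untreated cells and 33.6, 29.7 and 29.5 with N-OmtOspc (-0.96 ± 0.0757 SE, adjusted p = 7.78e-11). The groups did not overlap at either time. In all PSMD5 was called lower in 8 of the 15 groups. Its mean was also below that of untreated cells at 48 h with OmtOspc and MacOmtOspc (51.8 and 51.0 CPM). In batch 2 it was below with N-Mac and N-Omt (57.8 and 53.1 CPM against 66.6). PSMD10 was called lower in 6 groups and higher in 1, and lay at -0.66 and -0.93 log2 with N-OmtOspc at 24 and 48 h. With CKI neither was called, with log2 fold changes between -0.13 and 0.012.

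The sequences before the start sites of the members named for the most frequent falls and rises are shown for reference. They are taken from RefSeq (GRCh38.p14; the table holds the 250 bases before to 50 after each start), whose build differs from the hg19 build of the counts. Of the 34 members 29 had an entry, with 35 promoters. PSMA7, PSMB1, PSMB6, PSMB7 and PSMD4 had none. The 120 bases before the start are printed 5′ to 3′ on the gene's strand, and capitals mark GC boxes (GGGCGG) and CCAAT boxes (CCAAT) on either strand. PSMC3, PSMC6 and PSMD1 were mostly lower and PSMD2 and PSMD11 mostly higher.
PSMC3 (chr11:47426440-47426559, minus strand): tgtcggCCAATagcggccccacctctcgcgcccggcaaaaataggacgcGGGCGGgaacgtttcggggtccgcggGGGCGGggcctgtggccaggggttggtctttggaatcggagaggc
PSMC6 (chr14:52707080-52707199, plus strand): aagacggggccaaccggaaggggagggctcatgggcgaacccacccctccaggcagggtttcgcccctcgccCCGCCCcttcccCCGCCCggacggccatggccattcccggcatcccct
PSMD1 (chr2:231056747-231056866, plus strand): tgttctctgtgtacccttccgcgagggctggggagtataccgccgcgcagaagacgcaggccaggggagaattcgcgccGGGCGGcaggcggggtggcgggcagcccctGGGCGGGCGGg
PSMD2 (chr3:184299121-184299240, plus strand): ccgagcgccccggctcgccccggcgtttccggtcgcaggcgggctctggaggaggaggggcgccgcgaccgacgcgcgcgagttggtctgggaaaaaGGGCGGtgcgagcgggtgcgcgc
PSMD11 (chr17:32444390-32444509, plus strand): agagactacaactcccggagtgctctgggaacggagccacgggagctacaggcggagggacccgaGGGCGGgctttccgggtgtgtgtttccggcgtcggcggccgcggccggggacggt

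All 5 windows held at least 1 GC box. A GC box was in 65.7% of the 35 member promoters and 45.0% of all 35116 promoters in the table, and a CCAAT box in 45.7% and 34.6%. The letters TGACNNNGC, shared by sites of the NRF1 and NRF2 factors (antioxidant response elements), were in the promoters of 9 members (25.7% of member promoters, 13.3% of all), 2 of the core and 7 of the cap. Of the members without an entry all but PSMD4 are core genes, so a smaller part of the core than of the cap was searched. A match of letters is a description of the sequence and not a site. Of the 9, the 7 with a match before the start are printed as 30 bases around 1 match. The bases are on the gene's strand, with the match on either strand in capitals. PSMD9 had another match before its start, at position -149, that is not printed.
PSMA4 (chr15:78540649-78540678, plus strand): cgtgggcacgaTGACTCTGCaccgcctcct
PSMB3 (chr17:38752626-38752655, plus strand): cgcctccgtttTGACTTTGCaaccaaacta
PSMC5 (chr17:63827653-63827682, plus strand): cgaccggatctGCTGTGTCAgcgccgccct
PSMD3 (chr17:39980759-39980788, plus strand): ttcccctttgtTGACTCGGCcatcggcctg
PSMD12 (chr17:67366724-67366753, minus strand): gagacaaaaccTGACGCTGCaggctggagt
PSMD5 (chr9:120843038-120843067, minus strand): ctggctacagtTGACACGGCcctaacggag
PSMD9 (chr12:121888677-121888706, plus strand): gcggcttccggTGACCCAGCtccgccctaa
Over the 15 groups, PSMA4 of these was called higher in 3 and lower in 5, PSMB3 higher in 2 and lower in 4, PSMC5 higher in 5 and lower in 2, PSMD3 higher in 6 and lower in 3 and PSMD12 higher in 7 and lower in none. PSMD5 was lower in 8 and PSMD9 in 3, and neither was higher in any.

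Comparing each mixture with CKI of the same time and batch addresses what removing or isolating components changed. At 24 h, 18 members differed with N-OmtOspc (4 higher and 14 lower, 1 and 25 with library totals alone), when 56.7% of all genes did. With N-MacOmtOspc 11 differed, all lower, with 33.8% of all genes. That count was 6 without CKI replicate 3 or N-MacOmtOspc replicate 1 and 7 without its replicate 3. With OmtOspc 3 were lower (PSMD3, PSMA6 and PSMC2), with 7.72% of all genes, from 0 without CKI replicate 2, CKI replicate 3 or OmtOspc replicate 2 (1 without its replicate 3) to 10 without its replicate 1. With MacOmtOspc no member was called by edgeR, with 10.7% of all genes, 3 had an unadjusted p under 0.05, and DESeq2 called 2. At 48 h, 20 members differed with N-OmtOspc, with 71.6% of all genes, 18 with N-MacOmtOspc (65.6%, 13 higher and 5 lower, or 6 and 13 with library totals alone), 18 with OmtOspc (50.3%) and 12 with MacOmtOspc (46.1%). Of the 8 core genes called with OmtOspc 7 were lower, and all 5 called with MacOmtOspc were.

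In batch 2, 21 members differed from CKI with N-Mac (65.8% of all genes, 6 higher and 15 lower, or 4 and 18 with RLE size factors), 20 with N-Nme (67.9%), 23 with N-Omt (73.3%) and 24 with N-Tri (67.8%). The 4 comparisons share the CKI libraries, and their own values for 5 members, picked after they were seen, stand side by side here in the order N-Mac, N-Nme, N-Omt and N-Tri. The log2 fold changes of PSMC6 were 0.54, 0.76, 0.40 and 0.76, those of PSMA5 0.63, 0.63, 0.53 and 0.53 and those of PSMD14 0.56, 0.57, 0.57 and 0.65, all called higher than with CKI. Those of PSMB3, a beta ring subunit, were -0.50, -0.90, -0.48 and -0.96 and those of PSMD4 -0.20, -0.42, -0.37 and -0.66, all called lower.

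The effect of CKI itself was compared between times and batches. For CKI at 48 h minus 24 h in batch 1 no member was called by edgeR, when 1.31% of all genes were. Of the 34 members 5 had an unadjusted p under 0.05, DESeq2 called 1, and 3 were called without CKI replicate 1 at 24 h. Between batches at 48 h the CKI effect differed for 4 members, PSMA4, PSMA5, PSMD2 and PSMD3, when 12.5% of all genes differed, a share near that of the members. The split was 2 higher (PSMA4 and PSMD3) and 2 lower in batch 2, but 3 higher and 0 lower with RLE size factors and 2 and 0 with the replicate block, both without the calls of PSMA5 and PSMD2. PSMD3, a lid subunit, was raised by CKI in both batches, from 294, 324 and 336 to 366, 371 and 370.1 CPM in batch 1 (0.22 ± 0.0794 SE, adjusted p = 0.0268) and from 228, 221 and 233 to 312, 301 and 319 CPM in batch 2 (0.45 ± 0.0532 SE, adjusted p = 4.08e-09).

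Genes that build, activate or regulate the proteasome were taken from lists, whose counts are set against the 27.2% of all genes called higher and 26.5% lower on average. Of 5 core assembly genes, PSMG1 and PSMG4, parts of the chaperone pairs of the alpha ring, were lower with CKI in each time and batch. The log2 fold changes of PSMG1 were -0.50, -0.55 and -0.67 at 24 h, at 48 h in batch 1 and in batch 2, and those of PSMG4 -0.65, -0.44 and -0.53. POMP, which matures the core, was called in N-Nme, N-Omt and N-Tri only, where it was higher by 0.28, 0.27 and 0.40. Over the 15 groups this list was called higher in 8 and lower in 32 of 75 tests (10.7% and 42.7%). PSME4, which encodes the activator PA200, was higher with CKI by 0.81, 0.30 and 0.47, and its list of 3, with PSME3 and the inhibitor PSMF1, was called higher in 13 and lower in 12 of 45 tests (28.9% and 26.7%). The list of 6 other cap parts and bound enzymes was called higher in 10 and lower in 30 of 90 tests (11.1% and 33.3%). None of its genes was called with CKI in all 3 settings.

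The 10 genes of the NRF1 pathway were called higher in 88 and lower in 11 of 150 tests (58.7% and 7.33%), against 27.2% and 26.5% of all genes. The small MAF partners rose with CKI in each time and batch, MAFF by 0.90, 0.66 and 0.46 log2, MAFG by 1.07, 0.72 and 0.75 and MAFK by 0.72, 0.82 and 0.53. NPLOC4, a cofactor of the VCP unfoldase, rose by 0.43, 0.31 and 0.44. NFE2L1 itself was not called with CKI, at 0.23 ± 0.115 (SE, adjusted p = 0.140), 0.19 ± 0.124 (SE, adjusted p = 0.207) and -0.043 ± 0.0565 (SE, adjusted p = 0.522). It was higher with N-OmtOspc (0.52 and 0.42 at 24 and 48 h) and N-MacOmtOspc (0.42 and 0.95). NFE2L2, the related factor NRF2, was higher with CKI by 0.41, 0.21 and 0.26. Its levels at 24 h were 75.6, 83.8 and 81.3 CPM in untreated cells and 128, 99.0 and 92.5 with CKI, highest in replicate 1, whose column carries no number. The 5 genes for ubiquitin and its activating enzyme UBA1 were called higher in 17 and lower in 14 of 75 tests (22.7% and 18.7%), with none called with CKI in all 3 settings. These are levels of RNA, and neither subunit protein nor proteasome activity is measured by them.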

How the data were processed

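Poly(A) RNA was sequenced strand-specifically as paired ends. The values are raw counts per gene that the authors deposited for 27978 genes in 54 libraries. Per the labels the submitters used FastQC 0.11.4, Trim Galore 0.3.7, STAR 2.5.3a, Subread 1.5.2 (featureCounts), edgeR 3.22.3 and the hg19 build. How reads shared with pseudogene copies were counted is not given in the sources used here, so members with processed copies are less certain.

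Genes passing filterByExpr over the 18 groups (minimum count 10) were scaled by TMM over all libraries and tested with edgeR 4.0.16 (quasi-likelihood, R 4.3.3) within each time and batch (18 libraries), with Benjamini-Hochberg adjustment over 16072 genes at 0.05. The CKI effect was compared between times and between batches by interaction terms in 12 libraries each. Total counts of 17673537 to 26138924 set the counting error. On simulated counts with known changes for CKI against UT, the test recovered 8%, 72% and 84% of 1.5-fold changes at 24 h, at 48 h in batch 1 and in batch 2. The simulation changed far fewer genes than were called in the data and gave all genes a common spread. Its shares are therefore not the power of the tests reported here.

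Values in full were given for PSMB5, PSMB6, PSMB7, PSMD4 and PSMD14, for the 4 members highest and the 4 lowest on average over the 15 treated groups and for the 6 called most often (ties by mean absolute log2 fold change). Of the other lists, at most 4 genes called with CKI in all 3 settings were named, and PSMB8, PSMB9, PSMB10, NFE2L1, NFE2L2 and POMP whatever their values. Any other gene was picked after its values were seen. Members and lists were chosen with earlier results of these data known. Alternatives were RLE size factors, library totals alone, DESeq2 1.42.0, other filters, a replicate block, the 2 groups alone and leaving out libraries.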

Additional observations from a re-analysis of the deposited data

Results flagged for a closer look

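The effect of CKI at 48 h differed between the batches for 4 members, by an interaction term in edgeR's quasi-likelihood test over all 16072 genes. As batch 2 minus batch 1 on the log2 scale, the difference was 0.24 ± 0.0727 (SE, adjusted p = 0.0281) for PSMA4 and 0.24 ± 0.0710 (SE, adjusted p = 0.03) for PSMD3. It was -0.22 ± 0.0642 (SE, adjusted p = 0.0279) for PSMA5 and -0.20 ± 0.0621 (SE, adjusted p = 0.0355) for PSMD2. Of all genes, 12.5% differed, a share near that of the members. With the replicate block or with RLE size factors PSMA5 and PSMD2 were no longer called. Each effect rests on 3 CKI and 3 untreated libraries per batch.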

How the results depend on the processing

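Of the alternative counts of called members, 331 stayed within 1.5 times the reported count and 38 did not. With library totals alone the count was 8 for CKI against UT at 24 h, 19 for N-MacOmtOspc, 8 for OmtOspc and 1 for MacOmtOspc against CKI at 24 h. With DESeq2 it was 5 for CKI and 2 for MacOmtOspc against UT at 24 h, 10 for OmtOspc and 2 for MacOmtOspc against CKI at 24 h, and 1 for the CKI effect at 48 h minus 24 h. With the 2 groups compared alone it was 6 for CKI and 4 for MacOmtOspc against UT at 24 h, 6 for N-MacOmtOspc and 0 for OmtOspc against CKI at 24 h, and 11 for N-MacOmtOspc against CKI at 48 h. With no filter beyond 1 count it was 2 for OmtOspc against UT at 24 h, and without the 3 libraries whose columns carry no number 1 for MacOmtOspc against CKI at 24 h. Leaving out 1 library gave 7 to 12 members for N-MacOmtOspc, 1 to 11 for OmtOspc and 0 to 1 for MacOmtOspc against UT at 24 h. It gave 6 to 13 for N-MacOmtOspc and 0 to 10 for OmtOspc against CKI at 24 h, and 12 to 18 for MacOmtOspc against UT at 48 h. For the CKI effect over time only CKI replicate 1 at 24 h was left out, which gave 3. For the CKI effect between batches no library was left out. The base chaperones had 2 higher calls with library totals alone, and PSMD14 with N-OmtOspc at 24 h turned to -0.039. The core median minus the cap median against UT, with the base chaperones left out of the cap, was -0.12 for CKI and -0.27 for N-OmtOspc at 24 h, then -0.022 for CKI, -0.030 for N-OmtOspc, -0.24 for N-MacOmtOspc, -0.33 for OmtOspc and -0.28 for MacOmtOspc at 48 h, and -0.060 for N-Mac, 0.074 for N-Nme, -0.12 for N-Omt and 0.16 for N-Tri. As means over members it was -0.0084 for N-OmtOspc at 24 h, -0.0019 for CKI, 0.052 for N-OmtOspc, -0.14 for OmtOspc and -0.12 for MacOmtOspc at 48 h, and 0.035 for CKI, -0.013 for N-Nme and 0.022 for N-Tri in batch 2. Leaving out 1 library gave -0.16 to -0.12 for N-OmtOspc at 24 h, 0.0064 to 0.028 for CKI and -0.22 to -0.19 for MacOmtOspc at 48 h in batch 1, and 0.012 to 0.074 for N-Mac and -0.0089 to 0.042 for N-Nme, and also turned the sign for N-MacOmtOspc at 24 h (-0.00051 to 0.069), at 48 h (-0.11 to 0.051) and for N-Omt (-0.012 to 0.075). The cause was not tested. A replicate block lowered the CKI effect between batches from 4 members to 2 and moved no other count by over 1.5 times. Same-numbered libraries deviated together (every correlation over 0.1) in no comparison, so the numbers were not taken as pairs. At 24 h the spread between replicates was widest, and in simulated counts for CKI against UT, 8% of 1.5-fold and 66% of 2-fold changes were recovered. With few genes changed and a common spread, the simulation does not give the power of the tests on the data.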
